A study of Homo sapiens with 12 samples.

Results

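HepG2, a human hepatoma cell line used as a model of the hepatocyte, was profiled on 12 Illumina HumanHT-12 arrays, of which 6 came from cultures kept for 8 h in high glucose (25 mM) and 6 from cultures kept as long in low glucose, described as biological replicates. The sample labels give 2.7 mM for the low-glucose medium, whereas the methods of the study give 0 mM for the same cultures, and the files do not settle which holds. Both groups came from the same unmodified line, were maintained in 25 mM glucose and were held for 16 h in 2.7 mM glucose before the 8 h, and no array was taken at the start of those 8 h. A difference between the groups is therefore a difference after 8 h and not a change from a starting level. The genes described are APOA1, APOA2, APOA4, APOA5, APOB, APOC1, APOC3, APOE, APOM and MTTP, 10 of the 18832 genes with a probe of a single gene symbol, and they were taken from the probe table by gene symbol. Each had 1 probe named with its symbol, so 10 of the 48803 probes on the array were assigned to them. Probes with no symbol or with several were not assigned to a gene.

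Apolipoproteins are the protein coat of the particles that carry triglyceride and cholesterol in blood, and the liver makes most of them. The microsomal triglyceride transfer protein encoded by MTTP loads lipid onto nascent apolipoprotein B in the endoplasmic reticulum, which starts the very-low-density lipoprotein (VLDL) particle, while apolipoproteins A-I and A-II form high-density lipoprotein (HDL). The smaller exchangeable apolipoproteins then set how fast the particles lose triglyceride to lipoprotein lipase and how fast receptors take them up. The arrays report the transcripts of these genes and not the secreted proteins or particles. Glucose acts on many liver genes through the transcription factor ChREBP, encoded by MLXIPL, which binds DNA at paired E boxes.

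Values are normalised probe intensities on a linear scale, and a probe was called where the adjusted p of limma over all 48803 probes was under 0.05. Of the 10 genes, 5 were higher in high glucose (APOA5, APOA4, MTTP, APOC1 and APOM), 1 was lower (APOB) and 4 were not called (APOA1, APOA2, APOC3 and APOE). Among all probes 16.2% were called, 8.77% higher and 7.43% lower in high glucose. Bright probes were called more often: 54.2% of the probes with a mean intensity over 1000 were called, and 9 of the 10 genes lie above that intensity, with 5 of these 9 called. Among the brightest probes of each gene, 27.6% were called. The share of 60.0% among the 10 genes is thus near that of bright probes in general. APOA5 was the single member that differed by 1.5-fold or more, and its difference was over 2-fold. The median log2 difference, high minus low glucose, was 0.16 over the 10 genes, against 0.00 over all probes and 0.03 over the probes above intensity 1000.

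Promoter sequences are shown for the 3 genes with the smallest p, as a stretch around an annotated start of transcription. They are RefSeq sequences of the GRCh38.p14 build, 250 bases before to 50 bases after the annotated start, and capitals mark the E box CACGTG, the core of the element bound by ChREBP and by the upstream stimulatory factors USF1 and USF2. The APOA5 window lies at chr11:116792371-116792670 on the minus strand, the APOA4 window at chr11:116823255-116823554 on the minus strand and the MTTP window at chr4:99574574-99574873 on the plus strand. APOA5 and MTTP each have a second annotated window, at chr11:116791830-116792129 and at chr4:99563880-99564179, which is not printed; the choice between the windows was made after the motif matches were seen, and the arrays do not show which start was used.
APOA5: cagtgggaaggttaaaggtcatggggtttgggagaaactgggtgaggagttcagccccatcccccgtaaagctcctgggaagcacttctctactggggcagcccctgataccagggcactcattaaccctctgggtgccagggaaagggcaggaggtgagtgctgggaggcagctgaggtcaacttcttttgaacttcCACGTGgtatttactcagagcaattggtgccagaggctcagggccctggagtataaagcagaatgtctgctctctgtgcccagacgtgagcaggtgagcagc
APOA4: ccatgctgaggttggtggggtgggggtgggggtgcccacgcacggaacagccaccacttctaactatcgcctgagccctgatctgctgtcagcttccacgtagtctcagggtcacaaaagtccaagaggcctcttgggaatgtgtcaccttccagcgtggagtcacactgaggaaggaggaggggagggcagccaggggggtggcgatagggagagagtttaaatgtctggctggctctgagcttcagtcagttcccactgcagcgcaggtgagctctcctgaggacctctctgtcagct
MTTP: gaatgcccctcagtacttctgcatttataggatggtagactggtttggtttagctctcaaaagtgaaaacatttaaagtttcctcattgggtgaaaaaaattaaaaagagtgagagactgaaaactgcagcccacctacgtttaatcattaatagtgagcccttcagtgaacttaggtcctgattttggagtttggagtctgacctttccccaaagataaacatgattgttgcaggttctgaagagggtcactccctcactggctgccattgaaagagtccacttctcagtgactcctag
The printed APOA5 window holds 1 E box, 52 to 47 bases before the start, and the second APOA5 window and both MTTP windows hold none of the motifs searched. The same 6 letters occur in 7.26% of the 35116 promoter windows of this length, and in 1 of the 11 windows that 7 of the 10 genes have. Searched on both strands, the letters CAAAGTCCA of an HNF4-type element (0.384% of all windows) and TCACNCCAC of a sterol response type (1.13%) were in none of the 11 windows, and the forkhead-type letters GTAAACA (3.42%) were in 1, that of APOA2. A match is a run of letters and does not show binding. A single E box is not the paired element of ChREBP, and the pair was not searched for. APOA1, APOB and APOC3 were not analysed in this way.

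The assembly genes differed in opposite directions, MTTP being higher and APOB lower in high glucose. MTTP (probe ILMN_1774742) had a lowest, median and highest intensity of 1434, 2101 and 2391 on the high-glucose arrays, against 1299, 1422 and 1618 on the low-glucose arrays. High-glucose replicate 3, at 1434, was the array that lay within the low-glucose range, and the other 5 lay above all 6 low-glucose arrays. The means were 2036 ± 357 in high glucose and 1431 ± 117 in low glucose (SD, n = 6 each), a 1.41-fold difference (95% interval 1.23 to 1.61) with an adjusted p of 2.5e-04 in limma. The coefficient of variation of MTTP in high glucose, 17.6%, was the highest of any of the 10 genes in either group, against 8.18% for MTTP in low glucose. Without replicate 3 of the high-glucose group the log2 difference of MTTP was 0.59 in place of 0.49.

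APOB (ILMN_1664024), the structural protein of VLDL and of low-density lipoprotein (LDL), had a lowest, median and highest intensity of 8531, 9167 and 10734 in high glucose, against 10071, 10932 and 12258 in low glucose. On 4 of the 6 high-glucose arrays APOB was below all low-glucose arrays, and replicates 2 and 5 overlapped with them. The means were 9495 ± 893 in high glucose and 11013 ± 773 in low glucose (SD, n = 6 each). The fold was 0.861 (95% interval 0.793 to 0.935), a log2 difference of -0.22 with a standard error of 0.06 and an adjusted p of 0.0079 in limma. The opposite directions of MTTP and APOB are visible in the plot of the 10 genes by array.

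**Figure D1:**
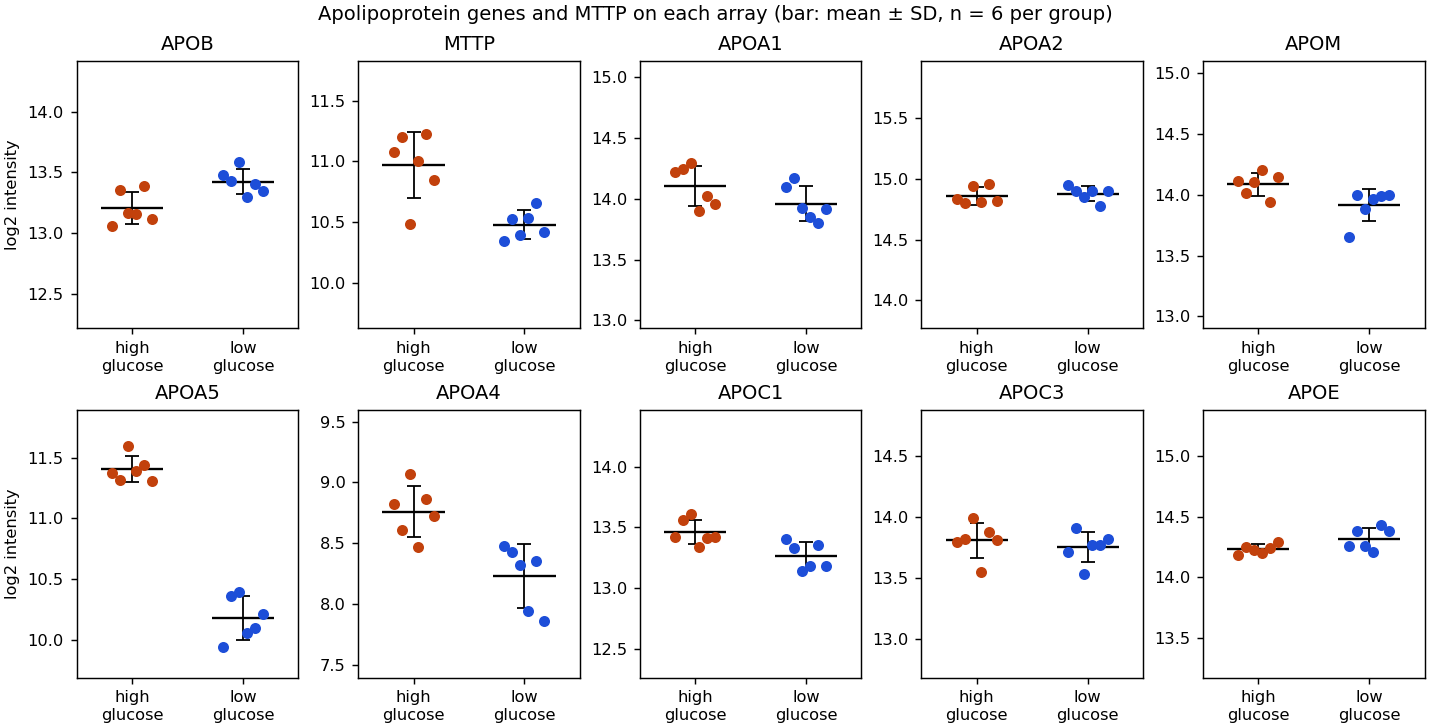
Log2 of the normalised intensity of the 10 genes on each of the 12 arrays, high glucose left and low glucose right, with 1 point per array, a line at the mean and whiskers of 1 SD (n = 6 per group); every panel spans the same log2 range. The 6 high-glucose points of APOA5, at intensities of 2529.8 to 3097, lie above all low-glucose points, at 983 to 1349, and in the other 9 panels the groups overlap.

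APOA5 showed the largest difference of the 10 genes. Its product, apolipoprotein A-V, is a scarce plasma protein that speeds the removal of triglyceride from plasma. APOA5 (ILMN_1754055) had a lowest, median and highest intensity of 2529.8, 2667 and 3097 in high glucose, against 983, 1142 and 1349 in low glucose. Every high-glucose array was above every low-glucose array, which held for none of the other 9 genes, and 10.5% of all probes had groups that did not overlap in either direction. The means were 2714 ± 207 in high glucose and 1166 ± 145 in low glucose (SD, n = 6 each), a 2.34-fold difference (95% interval 2.10 to 2.60) with an adjusted p of 1.9e-12 in limma. On the whole array 29 probes, among them those of 23 named genes, had a larger difference than APOA5 in the same direction, and 323 probes were called with a difference of at least 2-fold in either direction.

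APOA4, APOA5 and APOC3 are encoded together with APOA1 in 1 cluster on chromosome 11, in the order APOA5, APOA4, APOC3, APOA1. Apolipoprotein A-IV, which in humans comes mainly from the intestine and rides on chylomicrons and HDL, had the faintest of the 10 probes. APOA4 (ILMN_1675706) had a lowest, median and highest intensity of 354, 438 and 536 in high glucose, against 233, 323 and 356 in low glucose. High-glucose replicate 4, at 354, fell just under the highest low-glucose array, and the other 5 were above the low-glucose range. The means were 437 ± 63.3 in high glucose and 304 ± 52.2 in low glucose (SD, n = 6 each), a 1.44-fold difference (95% interval 1.24 to 1.68) with an adjusted p of 5.0e-04 in limma. No background correction is described, the lowest intensity of the table is 47.2 and the median 90.8, and where intensities include background the fold of a faint probe is smaller than the difference in its RNA.

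The other members of the cluster did not pass the test. Apolipoprotein C-III slows the lipolysis of triglyceride and the uptake of remnants, in opposition to apolipoprotein A-V. APOC3 (ILMN_1722070) averaged 14404 ± 1411 in high glucose and 13839 ± 1168 in low glucose (SD, n = 6 each), and its log2 difference of 0.06 had a 95% interval of -0.07 to 0.18 and an adjusted p of 0.69 in limma. The bounds of that interval lie well under the log2 difference of 1.22 at APOA5, whose interval ran from 1.07 to 1.38. APOA1 (ILMN_1690884), the main protein of HDL, averaged 17731 ± 2029.9 in high glucose and 16014 ± 1631 in low glucose (SD, n = 6 each). Its log2 difference was 0.15 (95% interval 0.01 to 0.28), with an adjusted p of 0.17 in limma. In high glucose the APOA1 arrays fell into replicates 1 to 3 at 19075 to 20053 and replicates 4 to 6 at 15328 to 16622, whereas those in low glucose ran between 14278 and 18434.

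The measured genes on either side of the chromosome 11 cluster, chosen by position in the RefSeq annotation of GRCh38.p14, were lower in high glucose or not called. On the APOA5 side, ZPR1, a zinc finger protein, averaged 1098 ± 67.3 in high glucose and 1369.9 ± 194 in low glucose (log2 difference -0.31, adjusted p 0.0044 in limma), and BUD13, a splicing factor, differed by 0.02 (adjusted p 0.93). On the APOA1 side the kinase gene SIK3 averaged 637 ± 49.5 in high glucose and 843 ± 85.5 in low glucose (log2 difference -0.40, adjusted p 2.7e-04), and PAFAH1B2, a subunit of platelet-activating factor acetylhydrolase, differed by -0.17 (adjusted p 0.25). An antisense gene, APOA1-AS, overlaps the cluster and has no value here.

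The remaining HDL genes differed little. Apolipoprotein M carries sphingosine-1-phosphate on HDL. APOM (ILMN_1731941) had a lowest, median and highest intensity of 15691, 17650.4 and 18891 in high glucose, against 12909, 16149 and 16361 in low glucose, so that 5 of 6 high-glucose arrays were above all low-glucose arrays. The fold was 1.13, with means of 17422 ± 1141 in high glucose and 15502 ± 1353 in low glucose (SD, n = 6 each) and an adjusted p of 0.031 in limma. Low-glucose replicate 1, at 12909, was far under the others, and without it the log2 difference of APOM was 0.12 in place of 0.17, with an adjusted p of 0.10. The call was also lost on leaving out high-glucose replicate 1, 3, 4 or 6 or low-glucose replicate 3 (adjusted p 0.058 to 0.096), in limma without a trend in the variance (0.12) and in a Cyber-T style test (0.056).

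Apolipoprotein A-II is the second protein of HDL, and APOA2 (ILMN_1688543) was the brightest of the 10 probes. It ranged between 28547 and 31902 in high glucose and between 28035 and 31617 in low glucose, with means of 29764 ± 1489.9 in high glucose and 30125 ± 1227 in low glucose (SD, n = 6 each). The log2 difference of -0.02 had a 95% interval of -0.10 to 0.06 and an adjusted p of 0.87 in limma. The probe ranked between 7 and 26 of 48803 by brightness on the 12 arrays, and 3 low-glucose arrays hold the same value of 30539. Quantile normalisation gives the same value to the same rank, so a higher value at this end of the scale is bounded by the few probes that are brighter. Their highest value in the table is 36779. A lower value is not bounded in this way.

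APOC1 and APOE are neighbours on chromosome 19, of which APOC1 was higher in high glucose and APOE was not called. Apolipoprotein C-I inhibits cholesteryl ester transfer and the uptake of remnants, while apolipoprotein E is the ligand by which receptors of the LDL receptor family bind them. APOC1 (ILMN_1789007) had a lowest, median and highest intensity of 10369, 10992 and 12478 in high glucose, against 9051, 9819 and 10867 in low glucose, with 5 of 6 high-glucose arrays above the low-glucose range. Its means were 11311 ± 806 in high glucose and 9890.3 ± 754 in low glucose (SD, n = 6 each), a 1.14-fold difference with an adjusted p of 0.012 in limma, which became 0.055 without a trend in the variance. The transcribed pseudogene APOC1P1 lies beside it, and whether the probe also reads its transcript was not tested. APOE (ILMN_1740938) averaged 19258 ± 524 in high glucose and 20484 ± 1284 in low glucose (SD, n = 6 each), with a log2 difference of -0.09, a 95% interval of -0.17 to 0.00 and an adjusted p of 0.21 in limma.

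Further along the same chromosome 19 cluster, APOC2, the cofactor that lipoprotein lipase needs, averaged 2500.1 ± 183 in high glucose and 1959.6 ± 207 in low glucose (SD, n = 6 each; log2 difference 0.35, adjusted p 3.6e-04 in limma). TOMM40, a channel of the mitochondrial outer membrane encoded on the other side of APOE, averaged 10758 ± 701 in high glucose and 9509 ± 363 in low glucose (log2 difference 0.18, adjusted p 0.0095). NECTIN2, a cell adhesion protein encoded beyond TOMM40, averaged 1330.5 ± 45.5 in high glucose and 839 ± 73.3 in low glucose (log2 difference 0.67, adjusted p 1.5e-08). APOC4, between APOC1 and APOC2, was near the median intensity of the table, at 108 ± 5.91 in high glucose and 106 ± 4.29 in low glucose (log2 difference 0.03, adjusted p 0.87). Of these 6 genes, 4 were higher in high glucose, and APOE and APOC4 were not called. Most of the 6 are bright, and 54.2% of the probes with a mean intensity over 1000 were called in either direction, against 27.6% of the brightest probes of each gene. The count is therefore no sign of a trait of the cluster.

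**Figure D2:**
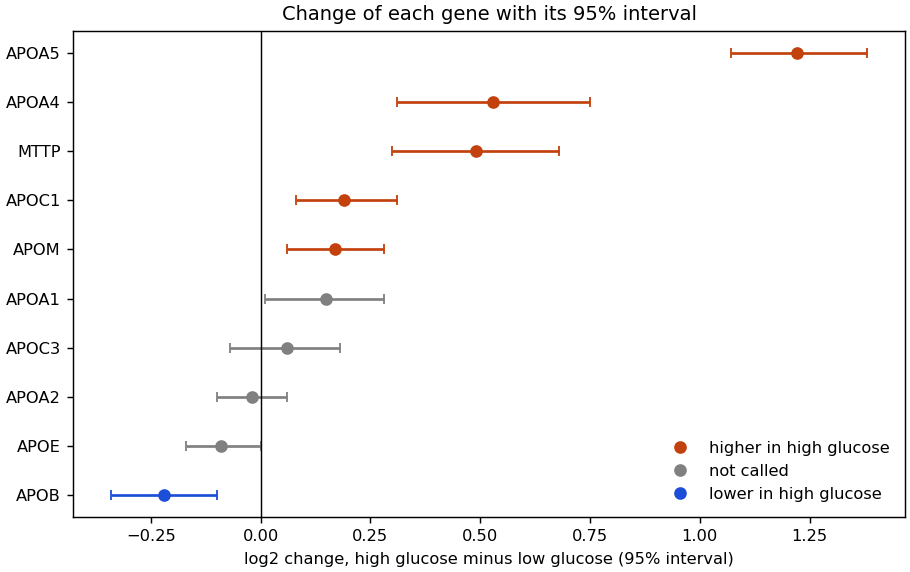
Log2 difference, high minus low glucose, of the 10 genes with its 95% interval from limma, n = 6 arrays per group, coloured by call at an adjusted p of 0.05. APOA5 at 1.22 stands apart from APOA4 at 0.53 and MTTP at 0.49, and the other 7 genes lie between -0.22 and 0.19.

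Set out by brightness, the 10 genes fall into 2 ranges. On no array did MTTP or APOA5 exceed 3097 units or APOA4 536 units, and these 3 have the largest differences. The other 7 had 8531 units or more on every array, and their log2 differences lay between -0.22 and 0.19. Intensities of different probes are not levels of RNA that can be set against each other, so this describes probes and not transcripts.

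**Figure D3:**
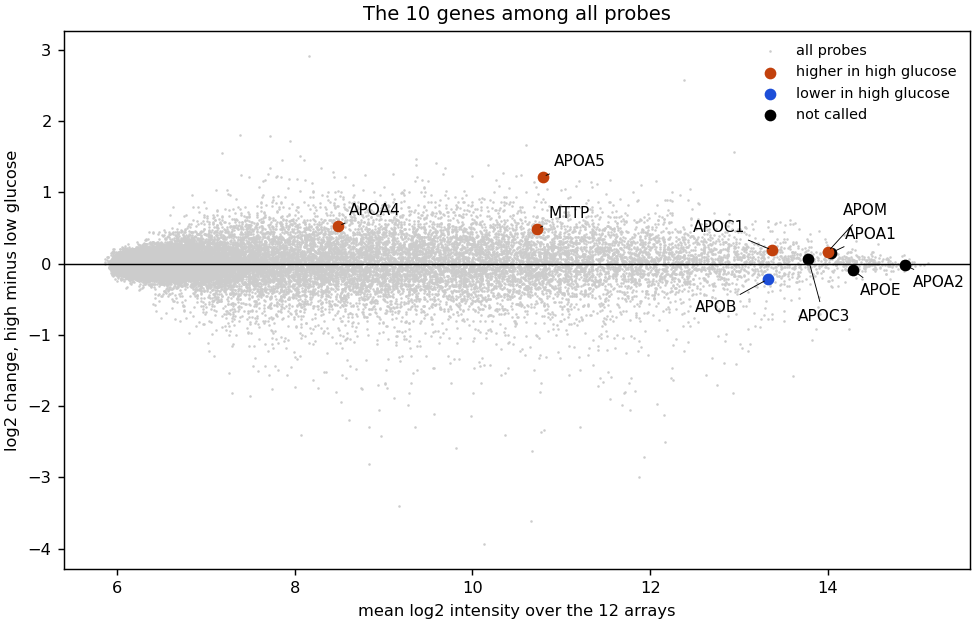
Log2 difference, high minus low glucose, against mean log2 intensity over the 12 arrays for all 48803 probes (grey) and for the 10 genes (coloured by call). APOA5, MTTP and APOA4 lie left of the 7 brightest genes of the set, and 29 probes lie higher than APOA5.

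Lists of related genes were read from the brightest probe of each gene, and their values are means ± SD over the 6 arrays of each group. Of 15 other apolipoprotein genes, all measured, 6 were higher in high glucose, 1 was lower and 8 were not called (46.7% called, against 27.6% over the brightest probes of all genes), with a median log2 difference of 0.10, and 5 of the 15 had a mean under intensity 100. APOF, which inhibits cholesteryl ester transfer, averaged 955 ± 35.0 in high glucose and 594 ± 68.8 in low glucose (log2 difference 0.69, adjusted p 6.7e-08 in limma). SAA4, a serum amyloid A protein made constitutively by the liver and carried on HDL, averaged 364 ± 21.2 in high glucose and 256 ± 22.1 in low glucose (log2 difference 0.51, adjusted p 7.7e-06). The gene that was lower, APOOL, encodes a protein of the mitochondrial inner membrane and averaged 524 ± 37.3 in high glucose and 690.1 ± 91.8 in low glucose (log2 difference -0.39, adjusted p 8.5e-04).

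Genes for the assembly and secretion of apolipoprotein B particles differed in both directions. Of the 20 measured of 21 listed, 4 were higher in high glucose, 7 were lower and 9 were not called (55.0% called), with a median log2 difference of -0.01. Over the brightest probes of all genes 27.6% were called. Most genes of this list have a mean intensity over 1000, and 54.2% of the probes over 1000 were called, so the share is near that of bright probes. HSPA5, the chaperone BiP of the endoplasmic reticulum, averaged 968 ± 66.4 in high glucose and 2284 ± 303 in low glucose (log2 difference -1.23, adjusted p 2.7e-12 in limma). PLA2G12B, which in mice is needed to lipidate VLDL, averaged 1844 ± 86.7 in high glucose and 1057 ± 98.3 in low glucose (log2 difference 0.81, adjusted p 5.7e-10). DGAT2, which catalyses the last step of triglyceride synthesis, was higher as well, at 290.1 ± 36.6 in high glucose and 173 ± 20.5 in low glucose (log2 difference 0.74, adjusted p 4.5e-07). MIA3, the cargo receptor TANGO1 of the exit sites of the endoplasmic reticulum, averaged 157 ± 9.86 in high glucose and 228 ± 18.6 in low glucose (log2 difference -0.54, adjusted p 4.1e-06).

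Of 12 measured of 15 listed genes that remodel lipoproteins in plasma, 2 were higher, 1 was lower and 9 were not called (25.0% called, against 27.6% over the brightest probes of all genes), with a median log2 difference of 0.07. The number called was 5 in place of 3 with a filter on intensity (over 100 on at least 6 arrays) and 5 in a test gene by gene. ANGPTL4, an inhibitor of lipoprotein lipase, averaged 263 ± 21.3 in high glucose and 506 ± 80.3 in low glucose (log2 difference -0.93, adjusted p 1.5e-08 in limma). ABCA1, which exports cholesterol to apolipoprotein A-I, averaged 3645 ± 194 in high glucose and 2791 ± 300.1 in low glucose (log2 difference 0.39, adjusted p 5.1e-05). LCAT, which esterifies cholesterol on HDL, averaged 531 ± 36.3 in high glucose and 450.2 ± 34.3 in low glucose (log2 difference 0.24, adjusted p 0.021), and its call was lost on leaving out high-glucose replicate 3 or 5 or low-glucose replicate 3 (0.053 to 0.065).

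Of the 9 measured of 11 genes for the uptake of lipoproteins, 2 were higher, 2 were lower and 5 were not called (44.4% called, against 27.6% over the brightest probes of all genes), with a median log2 difference of 0.07. SDC1, the heparan sulfate proteoglycan syndecan-1 that binds remnants on hepatocytes, averaged 2703 ± 304 in high glucose and 1539 ± 117 in low glucose (log2 difference 0.81, adjusted p 2.6e-09 in limma). LRPAP1, the chaperone of the LDL receptor family, averaged 779.6 ± 33.9 in high glucose and 566 ± 75.7 in low glucose (log2 difference 0.47, adjusted p 5.0e-05). VLDLR, a receptor for apolipoprotein E-rich particles, averaged 154 ± 18.9 in high glucose and 336 ± 65.7 in low glucose (log2 difference -1.11, adjusted p 8.6e-09). LSR, the lipolysis-stimulated receptor, averaged 297 ± 15.1 in high glucose and 345 ± 23.0 in low glucose (log2 difference -0.21, adjusted p 0.039), and its call was lost in a Cyber-T style test (0.066) and on leaving out high-glucose replicate 1, 2, 3 or 4 or low-glucose replicate 1, 4 or 5 (0.056 to 0.11).

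Of 21 measured of 25 listed transcription factors that act on apolipoprotein genes, 3 were higher, 5 were lower and 13 were not called (38.1% called, against 27.6% over the brightest probes of all genes), with a median log2 difference of -0.03. The number called was 14 in place of 8 with the filter on intensity and 13 gene by gene. The nuclear receptor RORA, an activator of APOA5 and APOC3, averaged 216 ± 18.8 in high glucose and 641 ± 72.7 in low glucose (log2 difference -1.57, adjusted p 7.1e-14 in limma). CEBPB, a basic leucine zipper factor, averaged 9974 ± 521 in high glucose and 21019 ± 1471 in low glucose (log2 difference -1.07, adjusted p 4.5e-15). The nuclear receptor NR2F1, also called COUP-TF1, averaged 483 ± 38.5 in high glucose and 256 ± 21.1 in low glucose (log2 difference 0.91, adjusted p 7.1e-10).

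The upstream stimulatory factors, which bind the E box letters printed for APOA5, differed from each other. USF1 averaged 444 ± 25.7 in high glucose and 343 ± 35.0 in low glucose (log2 difference 0.38, adjusted p 6.2e-04 in limma), whereas USF2 averaged 818 ± 95.3 in high glucose and 1138 ± 17.0 in low glucose (log2 difference -0.48, adjusted p 7.0e-06). FOXA1, a pioneer factor of liver genes, averaged 6311 ± 786 in high glucose and 4733 ± 222 in low glucose (log2 difference 0.41, adjusted p 5.0e-05). Chosen after its value was seen, FOXO1, an activator of MTTP and APOC3 that insulin restrains, averaged 936 ± 68.2 in high glucose and 1276 ± 139 in low glucose (log2 difference -0.44, adjusted p 5.1e-05). Likewise chosen afterwards, MLXIPL averaged 1075 ± 53.7 in high glucose and 941 ± 93.9 in low glucose and was not called (log2 difference 0.20, adjusted p 0.057 in limma). The 95% interval of its log2 difference ran from 0.05 to 0.34, and its adjusted p lies close to the threshold. The missing call is therefore no sign that MLXIPL was equal in the 2 groups, and its call under the alternatives was not tallied.

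**Figure D4:**
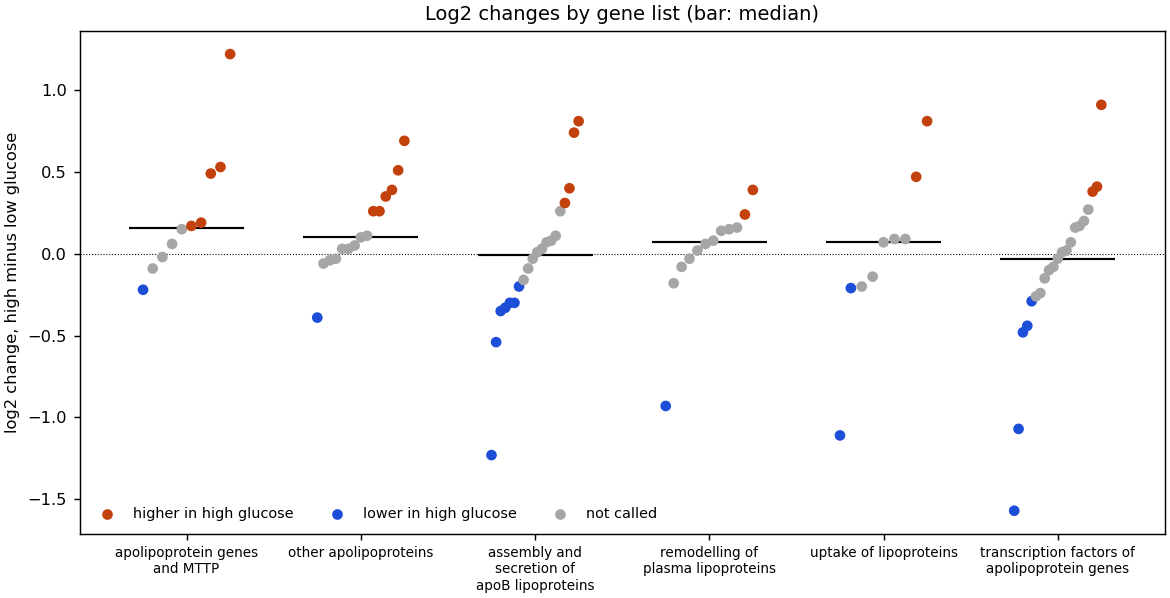
Log2 difference, high minus low glucose, of each measured gene in the 10 genes and in the 5 lists of related genes, with 1 point per gene coloured by call (limma, adjusted p of 0.05) and a bar at the median of each list. The 10 genes and the other apolipoproteins hold more higher than lower genes (5 against 1 and 6 against 1), and the assembly and the transcription factor lists hold more lower than higher genes (7 against 4 and 5 against 3).

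A list of genes nearest to ChREBP binding peaks in HepG2 accompanied the study, and its names were set beside the calls as a description with no test. APOA1, APOA2, APOB, APOC1 and APOC3 are among the names, and of these 5 genes 1 was higher in high glucose, 1 was lower and 3 were not called. APOA4, APOA5, APOE, APOM and MTTP are not among them, and of these 5 genes 4 were higher and 1 was not called. The adjusted p of APOM was under 0.05 in 13 of 21 alternatives. Over all probes 16.2% were called, and 54.2% of those with a mean intensity over 1000. With 5 genes on each side, the 2 counts do not show a difference between listed and unlisted genes. Since a peak is given its nearest gene, genes that lie side by side, as on chromosomes 11 and 19, cannot be told apart in this way.

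Hepatocyte markers were bright in both groups. The 7 measured of 9 listed had means between 2682 and 27903 and summed to 99731 to 113234 in high glucose and 98108 to 105596 in low glucose, with FGB called (3171 ± 265 in high glucose and 2194 ± 102 in low glucose, log2 difference 0.53, adjusted p 1.8e-07 in limma). As APOA4 and MTTP are also genes of the intestine, 5 enterocyte markers were examined. They summed to 1225 to 1438 in high glucose and 1119 to 1249 in low glucose, most of it from VIL1 (927 ± 49.1 in high glucose and 809 ± 65.6 in low glucose, log2 difference 0.20, adjusted p 0.048), while FABP2, CDX2, SI and LCT were near the median intensity of the table. The part of VIL1, which hepatoma cells also express, in the APOA4 and MTTP results was not tested. Of 5 macrophage markers, PTPRC, CSF1R and ITGAM were near the median of the table, CD68 was bright in both groups and CD14 was higher in high glucose (472 ± 36.1 in high glucose and 294 ± 21.5 in low glucose, log2 difference 0.68, adjusted p 6.8e-08), and of 5 stromal and endothelial markers none was called.

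Arrays of the same group correlated at 0.9923 to 0.9949 over all probes and arrays of different groups at 0.9847 to 0.9878, and no pair of arrays held identical values. On leaving out each of the 12 arrays in turn, APOA5, APOA4, MTTP and APOB kept their direction and their call in every case, as they did under all 21 alternatives tried. Over those alternatives the adjusted p ran between 8.3e-14 and 1.9e-10 for APOA5, 8.7e-05 and 0.0023 for APOA4, 1.8e-06 and 0.0013 for MTTP and 0.0019 and 0.039 for APOB. APOC1 stayed under 0.05 in 20 of the 21, APOM in 13 and APOA1 was under it in 1, while APOA2, APOC3 and APOE were in none.

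**Figure D5:**
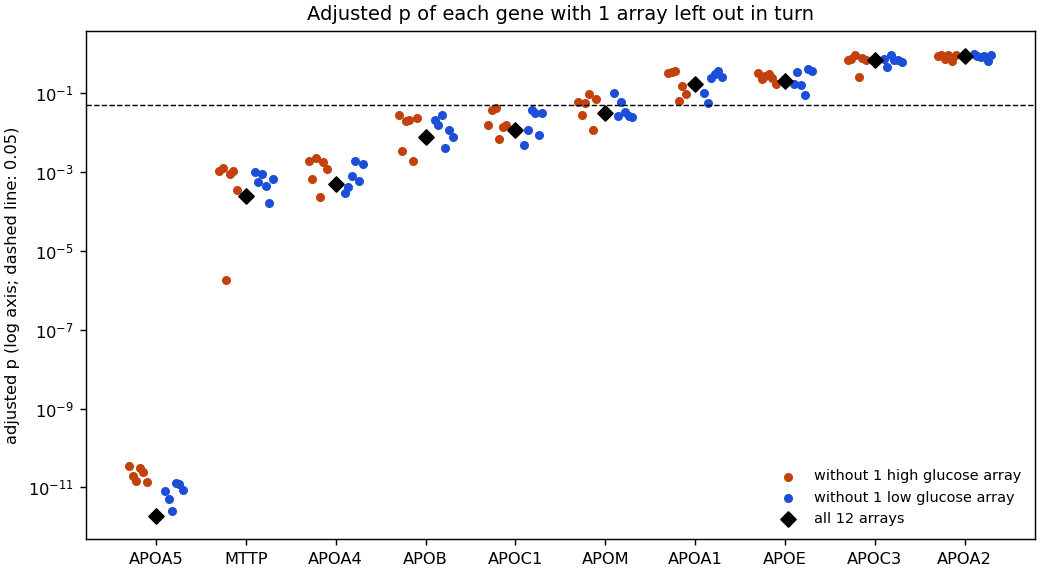
Adjusted p of limma (log axis, dashed line at 0.05) of the 10 genes on all 12 arrays (diamonds) and with 1 high-glucose or 1 low-glucose array left out in turn (points). All points of APOA5, MTTP, APOA4, APOB and APOC1 lie under the line, those of APOM lie on both sides of it, and those of APOA1, APOE, APOC3 and APOA2 lie above it.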

How the data were processed

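RNA from HepG2 cells was measured on 12 HumanHT-12 arrays, 6 per group. The deposited values are linear probe intensities that the authors quantile normalized across arrays, with the sorted values of any arrays within 0.825 units. By the methods of the study, limma served for normalization and, beside CyberT, for testing, with no settings stated. GenomeStudio 2010.1 is named in the submitters' notes. No source describes a filter or a background correction, and no intensity is under 47.2. A second table held 24 columns of samples whose names match no label and was not used. Slides and scan dates are unknown.

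Probes were named through the platform annotation: 28098 had 1 gene symbol, 13 several and 20692 none. Log2 intensities of all 48803 probes entered limma 3.58.1 (R 4.3.3), with lmFit and a variance trend in eBayes, and p-values were adjusted by Benjamini-Hochberg over all probes, with calls under 0.05. A log2 difference is high minus low glucose. Lists use the brightest probe of each gene. The script was tested on simulated data. As no source says which cultures shared a passage or a day, p-values measure the spread between these cultures only. The number of arrays limits precision (median SD within groups 0.125 on the log2 scale).

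The genes and lists were chosen with earlier results of these data known. Besides the 10 genes, the text names at most 4 genes of each list, those with the smallest p among the called ones, every gene against the majority of its list where there were at most 3, every called marker and genes chosen by position, or afterwards where stated. Alternatives were log2(intensity + 16), normexp background correction (offset 16), intensity over 100 on at least 6 arrays, a test in the style of Cyber-T (window of 101 probes and prior weight of 10), eBayes without a trend, array weights, the replicate number as a block, each array left out, an adjusted p under 0.01 and a test gene by gene. Motifs were searched in RefSeq promoter windows. Python 3.11.15 with matplotlib 3.10.9 drew the figures. The ChIP-seq signals of the study were not analysed here.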

Additional observations from a re-analysis of the deposited data

Results flagged for a closer look

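In 7 of the 106 groups of 6 arrays examined, over the genes named here, the highest or the lowest array stood apart from the rest. Its gap to the nearest array, as a share of the whole range, exceeded Dixon's critical value for 6 values. Gap and range were taken on the log2 scale, whereas the intensities below are linear. Chance alone flags about 1 in 20 groups. One of the 10 genes was concerned: APOM in low glucose, where replicate 1 had an intensity of 12909 and the other 5 arrays lay between 15119.9 and 16361, a gap of 0.667 of the range. In high glucose, DGAT2 was at 361 on replicate 6 and at 258 to 291 on the others (0.638). NR2F1 was at 557 on replicate 5 in high glucose and at 445 to 481 on the others (0.652). On the same array USF2 was at 1006, with 739 to 809 on the other high-glucose arrays (0.706). The remaining 3 were faint marker genes: LCT at 138 on high-glucose replicate 6 with 63.0 to 73.9 on the others (0.797), CSF1R at 81.9 on high-glucose replicate 4 with 69.1 to 73.0 on the others (0.677), and DCN at 142 on low-glucose replicate 5 with 100.3 to 113 on the others (0.646).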

How the results depend on the processing

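Of the 10 genes, 5 were called higher and 1 lower in high glucose. The number called higher was 3 with eBayes without a trend and 3 at an adjusted p under 0.01, and ran between 4 and 5 with each array left out, while the number called lower was 1 throughout. In the list of plasma remodelling genes 3 were called, against 5 with the intensity filter and 5 gene by gene. In the transcription factor list 8 were called, against 14 with the intensity filter and 13 gene by gene, both of which test fewer probes. With each array left out the counts ran between 6 and 7 for the other apolipoproteins, 9 and 12 for assembly and secretion, 2 and 4 for remodelling, 3 and 5 for uptake and 7 and 12 for the transcription factors. No direction was reversed. Over the 10 genes and the genes named from lists by the stated rule, the call was lost in 25 pairings of a gene with an alternative (those of APOC1, APOM, LCAT and LSR) and gained in 1. Markers and genes chosen by position or afterwards were not in this tally. VIL1, at an adjusted p of 0.048 in limma, is not called at the threshold of 0.01.

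No sign of a pairing by replicate number was seen: the correlations of same-numbered deviations ran between -0.0357 and 0.0128, and 2 of 6 numbers correlated best with their own. The check used all probes, many of them faint, so it cannot exclude a pairing. With the replicate number as a block, 6 of the 10 genes were called higher and 1 lower. APOA1 was the gene gained, at an adjusted p of 0.035, and LSR was lost at 0.057.

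Where intensities include background, folds of faint probes such as APOA4 are understated. After quantile normalization, probes at the very top of the scale have little room to be higher still, but can be lower. Bright probes can differ, as CEBPB did with means of 9974 in high glucose and 21019 in low glucose. No level of protein was measured.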

Other observations

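For the 3 genes with the smallest p, the genes with the most similar pattern over the 12 arrays were listed by Pearson's r of log2 intensity, as a description. The points share the split into 2 groups, so r is also given within the 6 arrays of each group. The genes were picked among all genes by r over the 12 arrays, which includes the agreement within groups. The values within groups are therefore raised by the choice and test nothing. APOA5 was followed most closely by FCGBP (r 0.990 over the 12 arrays, 0.952 within high glucose and 0.716 within low glucose), CDK10 (0.989, 0.667 within high glucose and 0.810 within low glucose) and TNS3 (0.987, 0.552 within high glucose and 0.938 within low glucose). MTTP was followed by CLCC1 (0.926, 0.897 within high glucose and 0.393 within low glucose), CENPL (0.924, 0.784 within high glucose and 0.951 within low glucose) and DNMT3B (0.919, 0.838 within high glucose and 0.764 within low glucose). APOA4 was followed by CHST7 (0.937, 0.873 within high glucose and 0.927 within low glucose), FSCB (0.930, 0.824 within high glucose and 0.921 within low glucose) and PIH1D1 (0.924, 0.606 within high glucose and 0.935 within low glucose). None of the 9 is an apolipoprotein gene.

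Arrays differed in which of the 10 genes were extreme. High-glucose replicate 3 had the highest value of its group for 5 genes (APOA1, APOA4, APOA5, APOC1 and APOC3) and the lowest for MTTP. High-glucose replicate 4 had the lowest value for 4 genes (APOA1, APOA4, APOC1 and APOC3) and the highest for APOM.

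LDAH and GDF7, which lie beside APOB on chromosome 2 and were chosen by position, were higher in high glucose while APOB was lower. GDF7, a growth factor of the bone morphogenetic protein family, averaged 329 ± 41.8 in high glucose and 171 ± 6.49 in low glucose (SD, n = 6 each; log2 difference 0.94, adjusted p 1.4e-09 in limma). LDAH, a lipid droplet hydrolase, averaged 838 ± 45.4 in high glucose and 688 ± 31.5 in low glucose (log2 difference 0.28, adjusted p 0.0019).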
